A study of Mus musculus with 93 samples.

Results

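A set of 9 genes linked to the bile duct epithelium and to the keratin filaments of liver cells, *Krt7*, *Krt8*, *Krt18*, *Krt19*, *Krt23*, *Sox9*, *Epcam*, *Tff3* and *Cd24a*, was followed across the livers of 7 inbred mouse strains on 2 diets. The members were the rows of the deposited count table whose Ensembl identifiers carry these symbols, 9 of the 53465 genes in that table, and all 9 were among the 19110 genes with enough reads to be tested. Liver RNA came from 93 male mice of C57BL/6J, DBA/2J, A/J, 129S1/SvImJ, WSB/EiJ, CAST/EiJ and PWK/PhJ. Every mouse was housed at 30°C (thermoneutrality for mice) from 6 wk of age, given for 17 wk, beginning at 7 wk of age, a control diet (CD, 10% of energy from fat) or a Western diet (WD, 40%), and killed at 24 wk. The labels name no engineered allele and no agent besides the diets, so that strain stands for the whole genetic background. C57BL/6J had 8 CD and 8 WD mice, DBA/2J 6 and 7, A/J 5 and 6, 129S1/SvImJ 7 and 6, WSB/EiJ 6 and 6, CAST/EiJ 7 and 8, and PWK/PhJ 6 and 7. The questions were how much the diet moved each gene in each strain, and whether the strains differed in that response.

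Keratins are the subunits of intermediate filaments and assemble as pairs of 1 type I and 1 type II chain. In the liver, keratin 8 (type II) and keratin 18 (type I) form the filaments of hepatocytes and are also made by duct cells, whereas keratin 7 (type II) and keratin 19 (type I) are classical markers of cholangiocytes, the cells lining the bile ducts. Keratin 23 is a type I keratin that is little made in resting liver and known as inducible. SOX9 is a transcription factor of duct and progenitor cells, EPCAM and CD24 are surface proteins of epithelial cells that mark ducts and progenitors, and TFF3 is a small secreted trefoil peptide known from mucosal epithelia. In chronic liver injury, small duct-like cells can multiply at the portal tracts, which is known as the ductular reaction, and these genes are among those used to follow it. The RNA came from whole liver, so a lower level of a transcript can mean fewer cells that make it or less RNA in each cell, and these cannot be told apart.

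*Krt8* (chr15:101996698-102004482, minus strand, GRCm38) and *Krt18* (chr15:102028180-102032027, plus strand) are neighbours, with 23697 bases between them, and *Krt7* lies on the same chromosome (chr15:101411043-101430313, plus strand). *Krt19* (chr11:100140810-100148665, minus strand) and *Krt23* (chr11:99477974-99493137, minus strand) lie in the type I keratin cluster, with *Sox9* further along that chromosome (chr11:112782224-112787760, plus strand). *Epcam* (chr17:87635979-87651129, plus strand) and *Tff3* (chr17:31125306-31129646, minus strand) are both on chromosome 17, and *Cd24a* is on chromosome 10 (chr10:43578284-43584265, plus strand). RefSeq promoter sequences, from 250 bases before to 50 bases after the transcription start on GRCm38.p6, were on hand for 5 of the 9 members, *Krt7*, *Krt8*, *Krt18*, *Krt23* and *Epcam*. They are C57BL/6J reference sequence, and the alleles of the other strains were not examined. Those of the keratin partners, which moved together across the mice, and of *Epcam*, which had one of the strongest responses in PWK/PhJ, are shown for chr15:102004293-102004592 (minus strand), chr15:102027966-102028265 (plus strand) and chr17:87635729-87636028 (plus strand), with capitals marking matches to the motifs searched:
Krt8 promoter: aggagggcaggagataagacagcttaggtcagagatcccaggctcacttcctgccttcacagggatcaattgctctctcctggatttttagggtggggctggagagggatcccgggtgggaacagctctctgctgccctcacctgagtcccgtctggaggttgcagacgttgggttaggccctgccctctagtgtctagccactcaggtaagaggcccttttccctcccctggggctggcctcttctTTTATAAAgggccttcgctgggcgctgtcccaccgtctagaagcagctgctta
Krt18 promoter: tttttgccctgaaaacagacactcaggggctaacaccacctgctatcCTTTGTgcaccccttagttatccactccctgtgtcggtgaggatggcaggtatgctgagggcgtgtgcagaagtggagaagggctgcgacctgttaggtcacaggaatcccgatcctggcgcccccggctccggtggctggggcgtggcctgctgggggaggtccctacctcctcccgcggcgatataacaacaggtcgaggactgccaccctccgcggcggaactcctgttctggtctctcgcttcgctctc
Epcam promoter: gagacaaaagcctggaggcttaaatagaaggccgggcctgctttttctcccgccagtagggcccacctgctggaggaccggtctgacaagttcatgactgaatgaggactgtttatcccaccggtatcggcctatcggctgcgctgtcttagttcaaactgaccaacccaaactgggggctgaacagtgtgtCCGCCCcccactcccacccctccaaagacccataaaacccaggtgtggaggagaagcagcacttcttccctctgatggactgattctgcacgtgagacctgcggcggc

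The motifs were searched on both strands of the 32851 promoters in that table. In the *Krt8* promoter, TATAAA began 1 base before the start and overlapped a match on the opposite strand that began at -3, and 13.6% of all promoters held this motif. The *Krt18* promoter held ACAAAG, the SOX motif, on the opposite strand at -203 (18.7% of all promoters), and the *Epcam* promoter held GGGCGG, the GC box, on the opposite strand at -58 (35.7%). The *Krt7* promoter, not shown, held 4 GC boxes, and no match was found in that of *Krt23*. The other motifs searched, TGANTCA (AP-1, 7.81% of all promoters), GGAATG (TEAD, 14.7%) and CCAAT (37.4%), had no match in the 5 promoters. These matches are a description of letters, and the data do not bear on binding there.

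Levels are given in CPM, the reads of a gene divided by the library's reads on genes, with each library scaled by its TMM factor. Reads on genes numbered 40020424 to 49894856 per mouse, with a median of 46618609, and RNA integrity numbers ran from 7 to 9.7. The hepatocyte marker *Alb* was at 37566 CPM or more in every mouse, so that the libraries carried the label's tissue. In 8 mice the sum of 5 pancreatic acinar genes exceeded 100 CPM, against 10 CPM or less in 78 mice, and in 4 mice the squamous keratins *Krt4*, *Krt5* and *Krt13* together exceeded 10 CPM. The share of reads that did not map to the C57BL/6J reference ran from 2.11% in A/J on WD to 13.3% in CAST/EiJ on WD. The 3 libraries that stood apart by their duct genes are replicate 2 of C57BL/6J on CD, replicate 3 of C57BL/6J on WD and replicate 5 of A/J on CD, and the main results that rest on them are given with and without them. They were picked by high values of the members themselves. Since all groups share an estimate of the spread, leaving them out can lower p-values in strains whose own mice are unchanged. Fold changes are WD against CD on the log2 scale with the SE, and a gene was called at an adjusted p below 0.05 (limma-voom, Benjamini–Hochberg over all genes within a strain). The mice of a group are separate animals of an inbred strain, and the p-values measure the spread between these animals.

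Per kilobase of exon, the median level over the 93 mice was 97.7 CPM per kb for *Krt18* and 65.3 for *Krt8*, which are the filament pair of hepatocytes. *Krt23* followed at 4.48 and *Tff3* at 2.92 CPM per kb. *Sox9* at 1.27, *Cd24a* at 1.16, *Epcam* at 0.596, *Krt19* at 0.532 and *Krt7* at 0.109 CPM per kb made up the low end, where the markers of duct cells lie. The lowest library held 11 reads of *Krt7*, 17 of *Epcam* and 1 of *Tff3*, against 1972 of *Krt8* and 2538 of *Krt18*, so that counting error adds more to the spread of the duct markers than to that of the keratin pair. *Krt7* and *Krt8* each overlap the exons of a gene on the opposite strand (*Gm671* and *Gm36026*), and the sources used here do not state whether counting used strand, so reads of such partners cannot be told apart. The pseudogene *Krt8-ps* had a median of 38 reads, and at most 892 in 1 mouse, against a median of 5664 for *Krt8*.

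**Figure D1:**
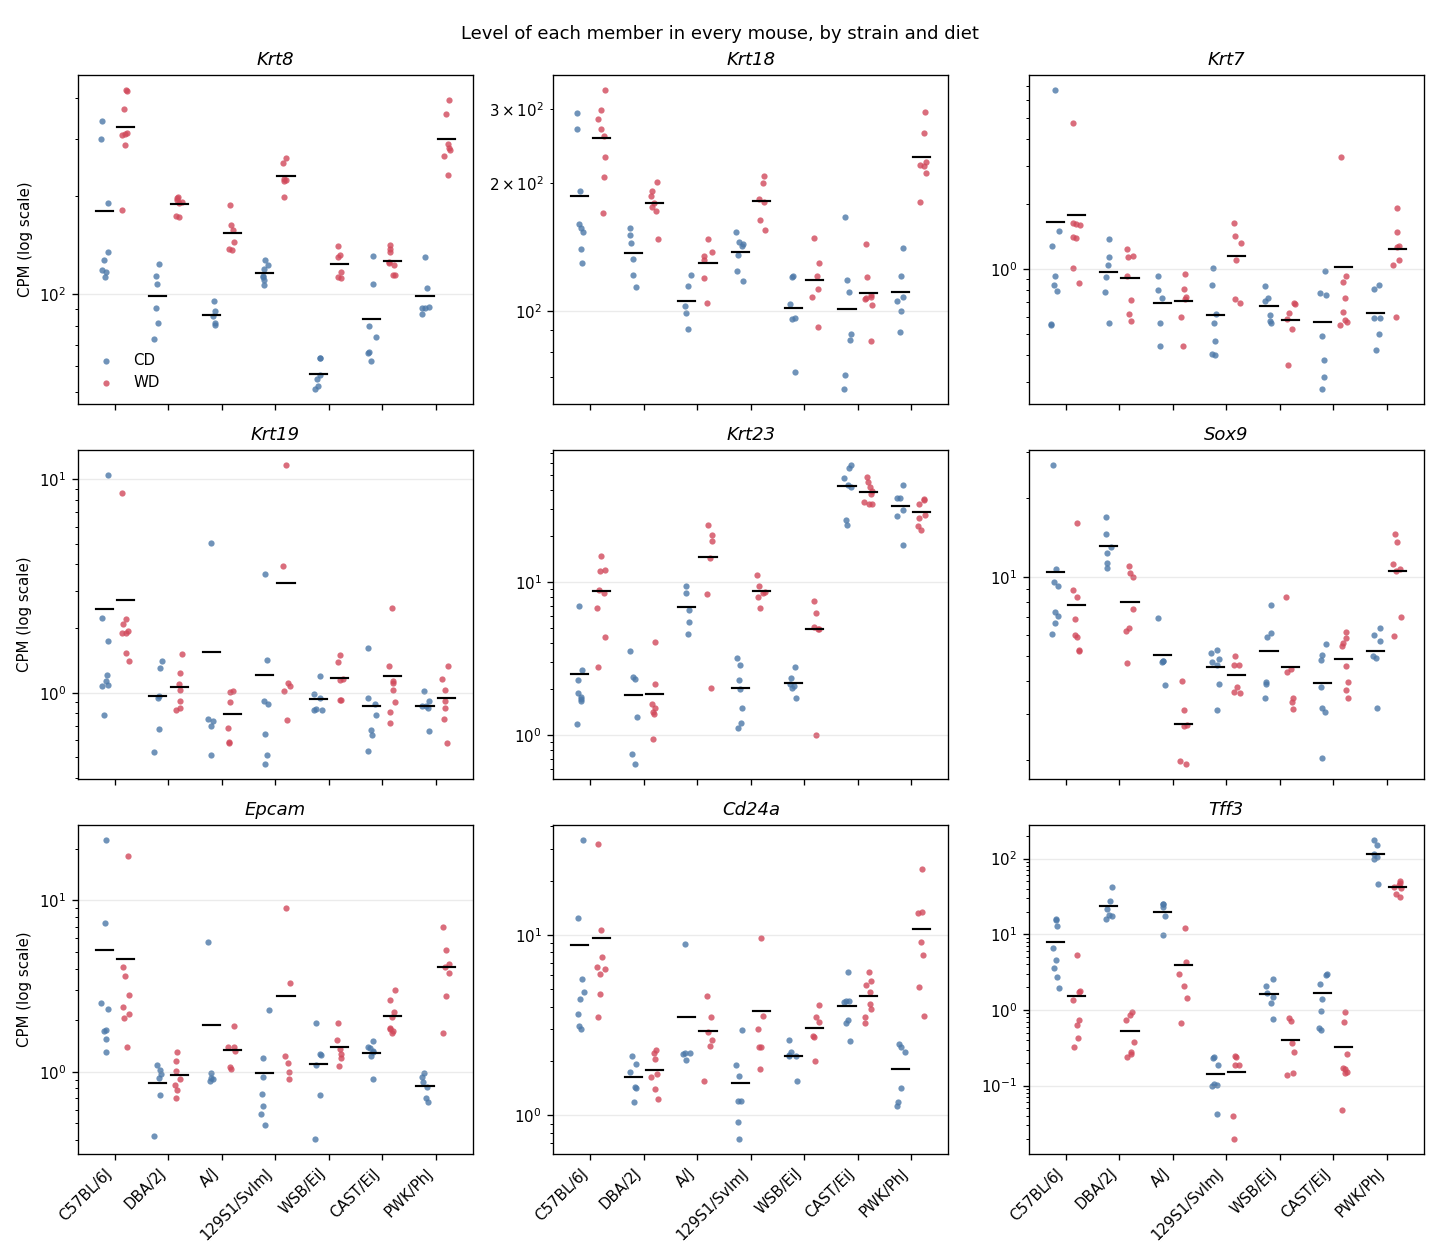
Level of each of the 9 genes in every mouse (CPM, log scale) by strain, with CD in blue and WD in red and a bar at each group's mean. *Krt8* was higher on WD in all 7 strains, *Tff3* on CD spanned from 0.0425 CPM in 129S1/SvImJ to 175 CPM in PWK/PhJ, and *Epcam* and *Cd24a* of PWK/PhJ on WD lay above every CD mouse of that strain.

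WD raised *Krt8* in all 7 strains, from 1.56-fold in CAST/EiJ to 3.02-fold in PWK/PhJ, and no other member was called in every strain. *Krt18* rose in 4 strains, *Krt23* in 2, and *Tff3* fell in 5. *Sox9* fell in DBA/2J and rose in PWK/PhJ, and *Epcam*, *Cd24a* and *Krt7* rose in PWK/PhJ, whereas *Krt19* was not called in any strain. Of the 63 tests of a member in a strain, 17 were called higher and 6 lower on WD. Of all genes tested, 4.39% (A/J) to 15.1% (PWK/PhJ) were called higher in a strain and 3.97% (WSB/EiJ) to 14.5% (PWK/PhJ) lower.

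PWK/PhJ had the most calls, with 6 members higher (*Krt8*, *Krt18*, *Krt7*, *Sox9*, *Epcam* and *Cd24a*) and 1 lower (*Tff3*), where 15.1% of all genes tested were called higher and 14.5% lower. In C57BL/6J, 3 members were higher (*Krt8*, *Krt18* and *Krt23*) and 1 lower (*Tff3*), against 14.3% and 11.9% of all genes. In 129S1/SvImJ, the same 3 keratins were higher and none of the members lower, against 14.5% and 13.6%. DBA/2J had 2 members higher (*Krt8* and *Krt18*) and 2 lower (*Sox9* and *Tff3*), with 10.2% and 7.77% of all genes. A/J had *Krt8* higher and *Tff3* lower, with 4.39% and 4.64% of all genes. WSB/EiJ had *Krt8* higher alone, with 4.97% of all genes higher and 3.97% lower, and CAST/EiJ had *Krt8* higher and *Tff3* lower, with 9.77% and 9.73%. The call counts of A/J, 129S1/SvImJ and WSB/EiJ depended on the method, since edgeR and DESeq2 each called 4, 6 and 3 members there. Without the 3 libraries that stood apart, a setting chosen after the data were seen, 7 members were called in 129S1/SvImJ and 3 in A/J. C57BL/6J then had 4 members higher and 1 lower, and PWK/PhJ kept its count of 7. None of the 3 libraries is of 129S1/SvImJ or PWK/PhJ, so the mice of these strains were the same in both fits.

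**Figure D2:**
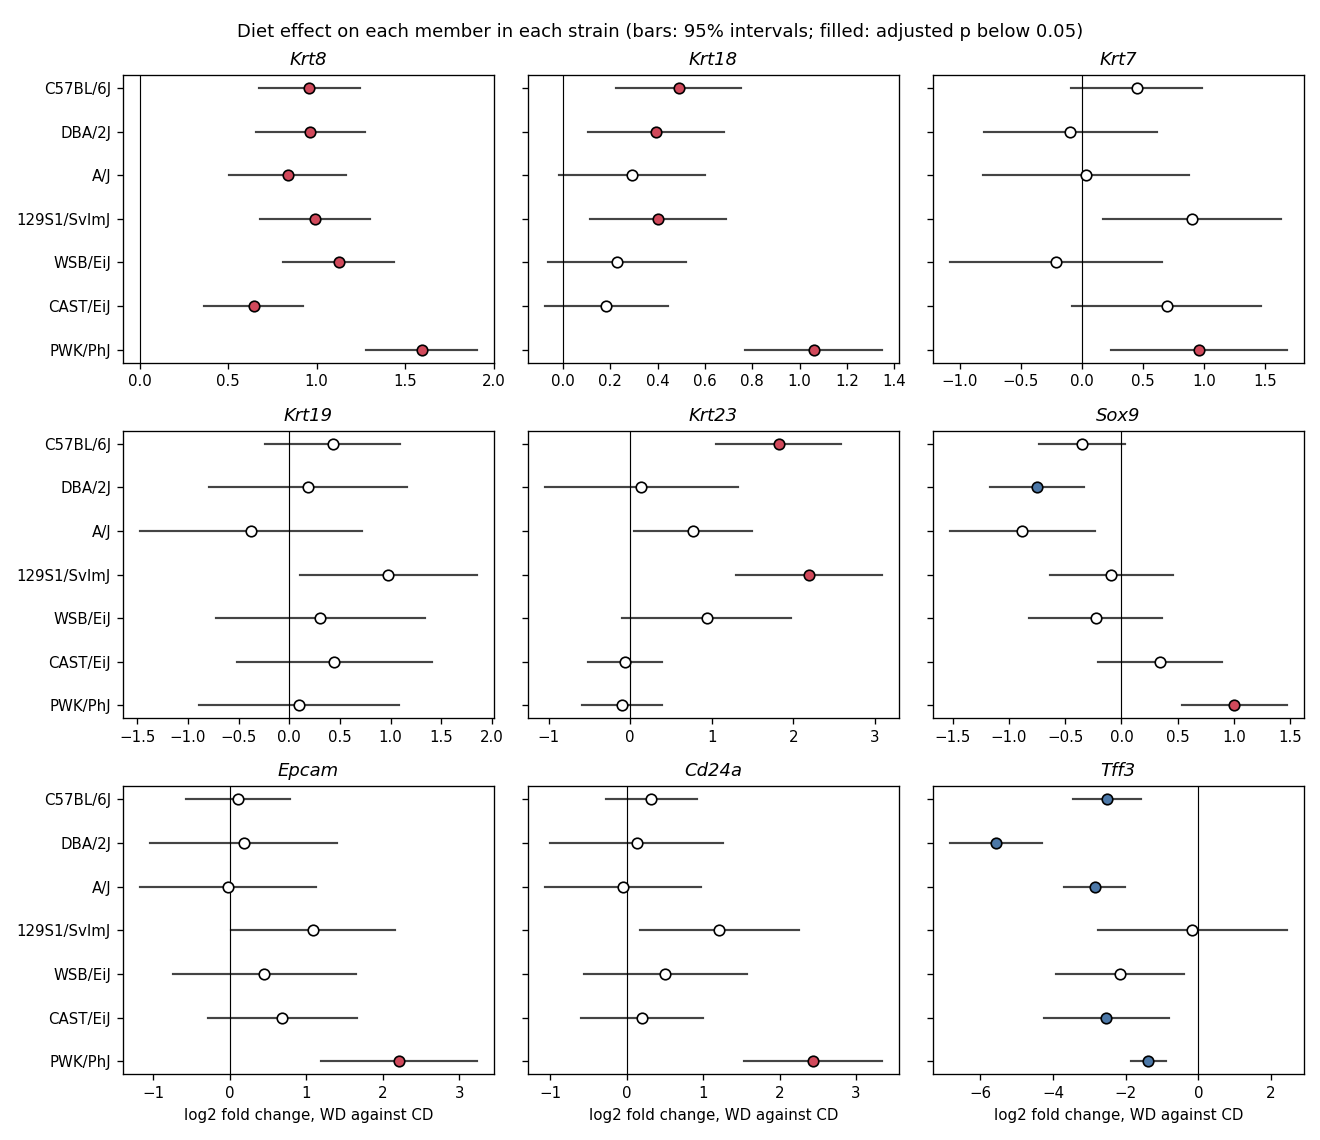
Diet effect on each gene (log2 fold change, WD against CD, horizontal axes) in each strain, with 95% intervals of limma-voom and filled points where the adjusted p was below 0.05. The 7 points of *Krt8* lie between 0.64 and 1.59, those of *Sox9* lie on both sides of 0, and those of *Tff3* reach -5.58 in DBA/2J.

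Among the strains, *Krt8* on CD was highest in C57BL/6J, where the lowest, median and highest of the mice were 113, 131 and 340 CPM, and WD mice of that strain were at 182, 311 and 425 CPM. In PWK/PhJ, CD mice were at 86.6, 90.9 and 130 CPM and WD mice at 233, 281 and 396 CPM. In WSB/EiJ, which was lowest on both diets, the values were 51.2, 55.5 and 63.6 CPM on CD and 112, 124 and 141 CPM on WD. The diets did not overlap in PWK/PhJ and WSB/EiJ, and in C57BL/6J 3 of 8 WD mice lay above all CD mice. In DBA/2J, *Krt8* was 72.8, 99.2 and 124 CPM on CD and 173, 193 and 199 CPM on WD. In 129S1/SvImJ it was 107, 114 and 128 CPM against 200, 226 and 262 CPM. In A/J, the 5 CD mice had 80.3, 81.7, 85.8, 88.5 and 95.1 CPM, and WD mice had 137, 151 and 188 CPM. These 3 strains also had no overlap between the diets. In CAST/EiJ, with 62.3, 74.0 and 131 CPM on CD and 114, 125 and 142 CPM on WD, the ranges overlapped and 3 of 8 WD mice exceeded every CD mouse.

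The diet effect on *Krt8* was 1.59 ± 0.16 in PWK/PhJ (adjusted p = 2.42e-13), 1.12 ± 0.16 in WSB/EiJ (1.45e-07), 0.99 ± 0.16 in 129S1/SvImJ (9.96e-07), 0.96 ± 0.16 in DBA/2J (1.97e-06), 0.96 ± 0.15 in C57BL/6J (2.58e-07), 0.84 ± 0.17 in A/J (0.000412) and 0.64 ± 0.14 in CAST/EiJ (0.000486). It was above 0 in each of the 15 combinations of a strain and a cohort (a group of mice that the labels number) taken alone, of which CAST/EiJ in cohort 1 had 1 CD mouse. These effects differed between strains (F test over the 7 diet effects, adjusted p = 0.015), where 37.5% of all genes tested had a diet effect that differed. PWK/PhJ exceeded the mean of the other 6 strains by 0.67 (adjusted p = 0.00331). On WD, the levels ran from C57BL/6J through PWK/PhJ, 129S1/SvImJ, DBA/2J, A/J and CAST/EiJ to WSB/EiJ, and the only neighbours in that order without overlapping mice were 129S1/SvImJ and DBA/2J.

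*Krt18*, the type I partner of *Krt8*, moved less. In PWK/PhJ, it was 89.3, 107 and 141 CPM (lowest, median and highest) on CD and 181, 221 and 294 CPM on WD, with no overlap. In 129S1/SvImJ, which also had none, it was 118, 143 and 154 CPM on CD and 155, 182 and 209 CPM on WD. In C57BL/6J it was 130, 159 and 294 CPM on CD and 170, 264 and 333 CPM on WD, so that the diets overlapped. In DBA/2J it was 114, 139 and 157 CPM on CD and 148, 180 and 201 CPM on WD, with 6 of 7 WD mice above all CD mice. In A/J, CD mice had 90.5, 99.1, 103, 115 and 122 CPM and WD mice 105, 133 and 148 CPM. WSB/EiJ had 71.8, 100.1 and 121 CPM on CD and 91.5, 117 and 148 CPM on WD, and CAST/EiJ had 65.6, 88.0 and 167 CPM on CD and 84.8, 108 and 144 CPM on WD, the strain in which no WD mouse exceeded all CD mice. *Krt18* rose by 1.06 ± 0.15 in PWK/PhJ (adjusted p = 1.6e-08), 0.49 ± 0.13 in C57BL/6J (0.00361), 0.40 ± 0.15 in 129S1/SvImJ (0.0316) and 0.39 ± 0.15 in DBA/2J (0.0485). The fold changes of A/J (0.29), WSB/EiJ (0.23) and CAST/EiJ (0.18) were not called. The DBA/2J call was lost on leaving out any of 10 of its 13 mice (adjusted p = 0.0568 to 0.125) and without the mice with pancreatic RNA (0.139), and that of 129S1/SvImJ without CD replicate 2 or 7 or WD replicate 4 or 5 (0.0587 to 0.0808). The strains differed in the diet effect (adjusted p = 0.00719), and PWK/PhJ exceeded the mean of the other 6 by 0.73 (adjusted p = 0.000582).

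Since keratin 8 and keratin 18 pair in the filament, their ratio was taken in each mouse from CPM per kb, which removes the scaling of the library. *Krt8* transcripts were the fewer of the pair on CD in every mouse, and the geometric mean ratio rose from 0.416 to 0.774 in WSB/EiJ, the largest shift. It rose from 0.522 to 0.775 in DBA/2J, from 0.601 to 0.877 in A/J and from 0.622 to 0.935 in 129S1/SvImJ. In PWK/PhJ it rose from 0.656 to 0.950, in C57BL/6J from 0.670 to 0.928 and in CAST/EiJ from 0.617 to 0.849. Single WD mice reached 1.09 in C57BL/6J and 1.06 in CAST/EiJ, and the diets did not overlap in DBA/2J, A/J, 129S1/SvImJ, WSB/EiJ and PWK/PhJ. Two-sided exact permutation tests of the mean log2 ratio, adjusted over the 7 strains, gave p = 0.00136 in DBA/2J, 129S1/SvImJ and PWK/PhJ, 0.00379 in WSB/EiJ, 0.00417 in C57BL/6J and CAST/EiJ, and 0.00433 in A/J. In DBA/2J, 129S1/SvImJ and PWK/PhJ (0.000583) and in WSB/EiJ (0.00216), the unadjusted p was the smallest that the group sizes allow. These p-values therefore do not rank the strains. The log2 differences were 0.90 in WSB/EiJ and between 0.46 and 0.59 in the other 6 strains. Over the 93 mice, with each group's mean removed, log2 *Krt8* and log2 *Krt18* had r = 0.74 (rank correlation 0.67), a description in which both genes share the library.

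**Figure D3:**
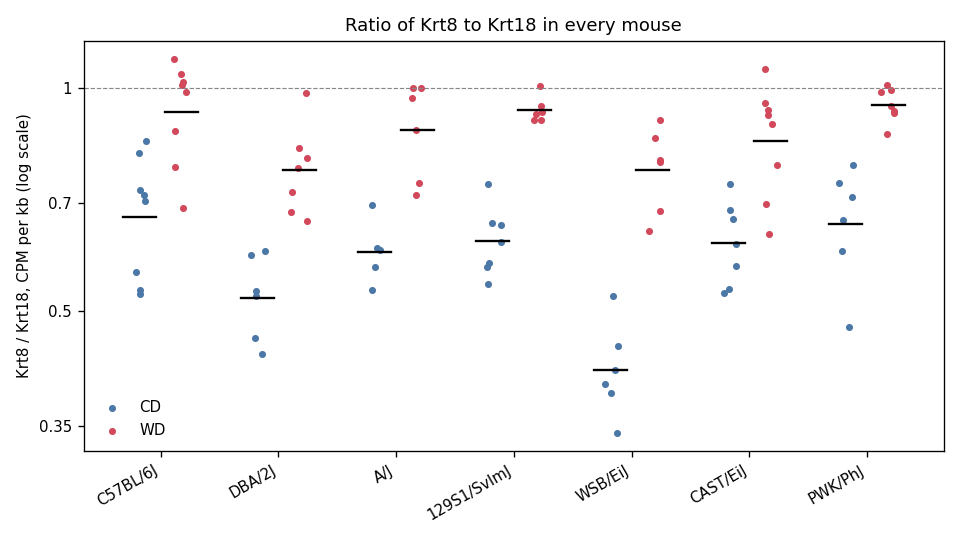
Ratio of *Krt8* to *Krt18* in every mouse, from CPM per kb on a log axis, with CD in blue, WD in red and a bar at the geometric mean. All CD mice lie below 1, and the WD means lie between 0.774 in WSB/EiJ and 0.950 in PWK/PhJ.

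*Krt23*, the inducible type I keratin, differed in level between strains by 23.2-fold on CD and 20.9-fold on WD, taking the highest over the lowest strain mean. CAST/EiJ had 23.8, 43.4 and 58.5 CPM on CD (lowest, median and highest) and 32.6, 38.6 and 49.1 CPM on WD. PWK/PhJ had 17.7, 32.7 and 43.3 CPM on CD and 21.9, 27.7 and 34.9 CPM on WD. In these 2 strains the gene was high on both diets, and the fold changes of -0.07 ± 0.23 and -0.10 ± 0.25 were not called. In 129S1/SvImJ, CD mice had 1.11, 1.99 and 3.19 CPM and WD mice 6.82, 8.56 and 11.1 CPM, with no overlap. In C57BL/6J, CD mice had 1.18, 1.84 and 7.01 CPM and WD mice 2.81, 8.69 and 14.9 CPM, and the highest CD mouse was one of the libraries that stood apart.

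*Krt23* rose by 2.20 ± 0.46 in 129S1/SvImJ (adjusted p = 0.000109) and by 1.82 ± 0.39 in C57BL/6J (0.000186), or 2.08 without the libraries that stood apart (8.92e-05). In A/J, 4 of 6 WD mice lay above all CD mice and 1 below them, and the fold change of 0.77 (0.192) became 1.27 (0.00553) without WD replicate 3, which had 2.05 CPM against a group median of 16.6 CPM. In WSB/EiJ (0.94, 0.309) 5 of 6 WD mice exceeded the CD mice, and edgeR and DESeq2 called the gene there (adjusted p = 0.0301 and 0.0138). A/J had 4.59, 5.47, 6.61, 8.56 and 9.41 CPM on CD and 2.05, 16.6 and 23.7 CPM on WD, and WSB/EiJ 1.77, 2.13 and 2.79 CPM on CD and 1.01, 5.02 and 7.58 CPM on WD. DBA/2J was low on both diets, with 0.650, 1.83 and 3.55 CPM on CD and 0.947, 1.51 and 4.05 CPM on WD (0.13 ± 0.60). In the order of the strains on CD, from CAST/EiJ, PWK/PhJ and A/J down to DBA/2J, neighbours did not overlap between PWK/PhJ and A/J. Without the libraries that stood apart, the A/J mice on CD (5.47 CPM or more) also lay above those of C57BL/6J (2.68 CPM or less) and of WSB/EiJ, the strain then next in the order. The strains differed in the diet effect (adjusted p = 0.000237), with 129S1/SvImJ 1.61 above the mean of the other 6 (0.0305), PWK/PhJ 1.07 below it (difference -1.07, 0.0115) and CAST/EiJ likewise (difference -1.03, 0.0117).

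Of the cholangiocyte keratins, *Krt7* was low throughout. In PWK/PhJ it was 0.422, 0.592 and 0.845 CPM on CD and 0.601, 1.26 and 1.91 CPM on WD, and 6 of 7 WD mice exceeded every CD mouse. It rose there by 0.96 ± 0.37 (adjusted p = 0.0389), a call that was lost on leaving out any of 8 of the 13 mice (0.052 to 0.1). Without the 3 libraries that stood apart the adjusted p was 0.00402. That fit leaves the PWK/PhJ mice unchanged and those libraries were picked by the members' own values, so it adds no support to the call. In 129S1/SvImJ it was 0.400, 0.564 and 1.01 CPM on CD and 0.698, 1.21 and 1.63 CPM on WD, with 4 of 6 WD mice above all CD mice. The fold change there was 0.90 ± 0.37 (0.0599, or 0.00854 without those libraries). C57BL/6J had 0.548, 0.887 and 6.72 CPM on CD and 0.856, 1.50 and 4.72 CPM on WD, where both highest values are those of the libraries that stood apart. Its mean on CD was the highest of the strains with that library (1.64 CPM) and second to DBA/2J without it (0.918 against 0.968 CPM). Its fold change was 0.45 (0.233), and 0.86 (0.00594) without CD replicate 2. CAST/EiJ had 0.279, 0.490 and 0.982 CPM on CD and 0.548, 0.681 and 3.29 CPM on WD (fold change 0.69, 0.227), the highest WD value being 1 mouse far from the others. Medians in DBA/2J (0.978 and 0.927 CPM on CD and WD), A/J (0.734 and 0.734 CPM) and WSB/EiJ (0.662 and 0.605 CPM) lay close together, with fold changes between -0.21 and 0.03. The diet effects on *Krt7* were not shown to differ between strains (adjusted p = 0.18), though the test passed without the 3 libraries that stood apart (0.0271).

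*Krt19*, the type I partner of keratin 7, had medians between 0.734 CPM (A/J on CD) and 1.93 CPM (C57BL/6J on WD) in the 14 groups. The fold change nearest to the threshold was that of 129S1/SvImJ, 0.98 ± 0.45 (adjusted p = 0.0908), where CD mice had 0.464, 0.888 and 3.60 CPM and WD mice 0.746, 1.09 and 11.7 CPM. It was 2.21 in cohort 3 of that strain (0.0314) and -0.19 in cohort 5 (0.891). Without the 3 libraries that stood apart, *Krt19* passed the test in 129S1/SvImJ (0.99, 0.018), as it did with edgeR (1.43, 0.0161) and DESeq2 (1.45, 0.00994). WD replicate 2 of 129S1/SvImJ, which stayed in, held the 11.7 CPM, against a median of 1.08 CPM in the other WD mice. In C57BL/6J, 0.43 (0.386) became 0.85 (0.0456) without CD replicate 2. Its mice there had 0.786, 1.18 and 10.5 CPM on CD and 1.41, 1.93 and 8.66 CPM on WD, and the other 7 CD mice had at most 2.24 CPM. The A/J mice on CD had 0.508, 0.695, 0.734, 0.755 and 5.03 CPM, and the fold change of -0.38 became 0.22 without the highest of them, uncalled in both. DBA/2J (medians of 0.953 and 1.03 CPM on CD and WD), WSB/EiJ (0.889 and 1.15 CPM) and CAST/EiJ (0.784 and 1.07 CPM) had fold changes of 0.18, 0.31 and 0.45. In PWK/PhJ, where other duct genes rose, *Krt19* was 0.663, 0.867 and 1.01 CPM on CD and 0.579, 0.911 and 1.33 CPM on WD, a fold change of 0.10 with a 95% interval from -0.89 to 1.08. A difference of the diet effects between strains was not called (adjusted p = 0.648).

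*Sox9*, the transcription factor of duct cells, moved in opposite directions in 2 strains. In DBA/2J, the highest of all strains on CD, mice had 10.9, 12.7 and 16.9 CPM on CD and 4.70, 7.53 and 11.02 CPM on WD, and 6 of 7 WD mice lay below all CD mice. In PWK/PhJ, mice had 3.15, 5.34 and 6.39 CPM on CD and 5.92, 10.7 and 14.6 CPM on WD, and 6 of 7 WD mice lay above all CD mice. *Sox9* fell by 0.75 on the log2 scale in DBA/2J (SE 0.21, adjusted p = 0.00759) and rose by 1.00 ± 0.24 in PWK/PhJ (0.000616). The strains differed in the diet effect (adjusted p = 6.67e-05), with PWK/PhJ 1.33 above the mean of the other 6 (0.000155) and DBA/2J below it (difference -0.72, 0.0497).

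In A/J, 5 of 6 WD mice (1.92, 2.69 and 4.01 CPM) had less *Sox9* than all CD mice (3.85, 4.72, 4.757, 4.76 and 6.93 CPM). The fold change there was -0.88 ± 0.33 with an adjusted p of 0.0772, and it passed with edgeR (0.0305), DESeq2 (0.0216) and without the libraries that stood apart (0.0293). C57BL/6J had 6.03, 8.27 and 26.8 CPM on CD and 5.22, 6.44 and 16.0 CPM on WD, with 4 of 8 WD mice below all CD mice. In that strain the fold change of -0.35 (0.186) was -0.84 in cohort 1 (0.0183) and 0.03 in cohort 2 (0.972), and it was -0.53 (0.0371) without WD replicate 3. The other strains were between 2.03 and 8.41 CPM, with medians of 4.93 and 3.88 CPM on CD and WD in WSB/EiJ, 4.73 and 4.19 CPM in 129S1/SvImJ, and 3.80 and 5.02 CPM in CAST/EiJ. Their fold changes of -0.23, -0.09 and 0.35 were not called. From CD to WD, PWK/PhJ moved from the third to the highest place in the order of the strain means, with overlapping mice at every step of the order on WD. On CD, the step from DBA/2J to C57BL/6J overlapped through replicate 2 of C57BL/6J, a library that stood apart, and the other C57BL/6J mice had at most 10.7 CPM, below all of DBA/2J.

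*Epcam* and *Cd24a*, which encode surface proteins of duct and progenitor cells, rose in PWK/PhJ with no overlap between the diets. *Epcam* there was 0.663, 0.840 and 0.986 CPM on CD and 1.67, 4.09 and 6.96 CPM on WD. *Cd24a* was 1.12, 1.83 and 2.48 CPM on CD and 3.56, 9.10 and 23.1 CPM on WD. The fold changes were 2.21 ± 0.52 (adjusted p = 0.000507) and 2.43 ± 0.46 (1.88e-05). In the 2 cohorts of that strain, *Epcam* had fold changes of 2.62 and 1.87 and *Cd24a* of 3.18 and 1.80. Both differed in diet effect between strains (adjusted p = 0.0436 and 0.00409), though *Epcam* did not pass with no filter on low counts (0.0642) or without the mice with pancreatic RNA (0.104), and PWK/PhJ exceeded the mean of the other 6 by 1.79 (0.0194) and 2.05 (0.00231).

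In CAST/EiJ, all 8 WD mice had more *Epcam* (1.69, 1.93 and 3.00 CPM) than every CD mouse (0.905, 1.31 and 1.51 CPM), yet the fold change of 0.69 ± 0.50 was not called (adjusted p = 0.365). In 129S1/SvImJ, *Epcam* (1.09, 0.129) and *Cd24a* (1.21, 0.0781) were not called, and both passed without the libraries that stood apart (0.0181 and 0.0111). No 129S1/SvImJ mouse is among those libraries. WD replicate 2 stayed in, with 9.03 CPM of *Epcam* (median of the other WD mice 1.13 CPM) and 9.62 CPM of *Cd24a* (2.38 CPM). The fold change of *Epcam* was 2.12 in cohort 3 of that strain and 0.10 in cohort 5. In 129S1/SvImJ, CD mice had 0.489, 0.738 and 2.29 CPM of *Epcam* and WD mice 0.907, 1.18 and 9.03 CPM, and *Cd24a* was 0.738, 1.21 and 2.99 CPM on CD and 1.81, 2.69 and 9.62 CPM on WD. C57BL/6J had 1.31, 2.04 and 22.4 CPM of *Epcam* on CD and 1.39, 2.59 and 18.1 CPM on WD, with *Cd24a* at 3.01, 4.62 and 33.5 CPM and at 3.49, 6.54 and 31.7 CPM, and the highest mice were those that stood apart. A/J on CD had 0.878, 0.912, 0.915, 0.977 and 5.74 CPM of *Epcam* and 2.01, 2.20, 2.21, 2.22 and 8.84 CPM of *Cd24a*, so that 1 mouse was far above 4 that agreed closely. Median *Epcam* was 0.943 and 0.910 CPM on CD and WD in DBA/2J, and 1.17 and 1.31 CPM in WSB/EiJ. Median *Cd24a* was 1.58 and 1.69 CPM in DBA/2J, 2.14 and 3.01 CPM in WSB/EiJ, and 4.24 and 4.48 CPM in CAST/EiJ. The fold changes of the remaining strains lay between -0.03 and 0.45 for *Epcam* and between -0.05 and 0.50 for *Cd24a*. The 2 genes ran together over the 93 mice with group means removed (r = 0.83), as did *Krt19* with *Epcam* (r = 0.80) and with *Cd24a* (r = 0.76), a description in which all share their library. The rank correlations, on which single high mice weigh less, were lower, at 0.67, 0.62 and 0.63.

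*Tff3*, the trefoil peptide, had the widest range of the members, 800-fold between the highest and the lowest strain mean on CD and 274-fold on WD. PWK/PhJ was highest, with 46.3, 110 and 175 CPM on CD and 31.2, 42.1 and 50.6 CPM on WD. DBA/2J had 16.0, 20.0 and 41.9 CPM on CD and 0.239, 0.381 and 0.947 CPM on WD, so that the diets were far apart. The 5 A/J mice on CD had 9.88, 17.3, 22.8, 24.87 and 24.97 CPM, and those on WD had 0.667, 2.52 and 12.3 CPM. C57BL/6J had 1.95, 5.58 and 15.7 CPM on CD and 0.319, 1.04 and 5.38 CPM on WD, with 7 of 8 WD mice below all CD mice. The low strains were CAST/EiJ, with 0.543, 1.40 and 2.98 CPM on CD and 0.0482, 0.170 and 0.946 CPM on WD, and WSB/EiJ, with 0.752, 1.58 and 2.59 CPM on CD and 0.138, 0.325 and 0.782 CPM on WD. In 129S1/SvImJ, the libraries held between 1 and 12 reads of *Tff3*, and a difference was not detectable at this depth. Every mouse of PWK/PhJ lay above every mouse of the next strain on the same diet, DBA/2J on CD and A/J on WD, and on CD every mouse of 129S1/SvImJ lay below those of WSB/EiJ.

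WD lowered *Tff3* in 5 strains, with log2 fold changes of -5.58 ± 0.65 in DBA/2J (adjusted p = 1.89e-10), -2.85 ± 0.43 in A/J (1.48e-06), -2.53 ± 0.87 in CAST/EiJ (0.0296), -2.52 ± 0.48 in C57BL/6J (2.5e-05) and -1.37 ± 0.25 in PWK/PhJ (7.35e-06). The call in CAST/EiJ was lost without CD replicate 2, 5 or 6 or WD replicate 8 (adjusted p = 0.0505 to 0.0651) and without the mice with pancreatic RNA (-2.19, 0.148). WSB/EiJ had a fold change of -2.16 ± 0.90 (0.126), with 5 of 6 WD mice below all CD mice, and passed with edgeR (0.0215) and DESeq2 (0.0052). The strains differed in the diet effect (adjusted p = 0.000163), with DBA/2J further down than the mean of the other 6 (difference -3.64, 0.000487) and PWK/PhJ less so (difference 1.26, 0.0288). The call for PWK/PhJ was lost with edgeR (0.93, 0.188), DESeq2 (0.94, 0.241) and without the mice with pancreatic RNA (1.22, 0.0567).

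In levels, 8 of the 9 members differed between the 7 strains on CD and 9 on WD (F tests, adjusted p below the threshold), as did 93.7% and 93.9% of all genes tested, so that these counts lie near the background. *Krt19* on CD was the exception (0.275), and it passed with edgeR (0.00491) and DESeq2 (0.00138). *Krt7* on CD (0.0349) was lost with quality weights (0.0969), without the mice with pancreatic RNA (0.0519) and without the 3 libraries that stood apart (0.0509). Besides *Tff3* and *Krt23*, the highest strain mean exceeded the lowest by 6.20-fold on CD for *Epcam*, 5.84-fold for *Cd24a*, 3.36-fold for *Sox9* and 3.16-fold for *Krt8*, and by 1.85-fold for *Krt18*. For *Epcam* and *Cd24a* the highest mean on CD was that of C57BL/6J, which holds a library that stood apart (group medians 2.04 and 4.62 CPM, means 5.12 and 8.83 CPM). Without the 3 such libraries, the ranges on CD were 3.20-fold for *Epcam*, 3.52-fold for *Cd24a* and 2.86-fold for *Krt8*. The levels between strains also carry the unequal share of unmapped reads. That share also moved with the diet, from 3.50% on CD to 7.88% on WD in PWK/PhJ, 4.52% to 7.42% in WSB/EiJ, 10.8% to 13.3% in CAST/EiJ and 4.55% to 5.57% in 129S1/SvImJ, and from 6.45% down to 4.77% in DBA/2J. Its part in the results was not tested.

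The diet effect of PWK/PhJ differed from the other 6 strains' mean for 7 of the 9 members, all but *Krt7* (adjusted p = 0.268) and *Krt19* (0.831), where 16.3% of all genes tested did. The 7 include *Tff3*, whose call was lost with edgeR, DESeq2 and without the mice with pancreatic RNA. The difference was upward for *Krt8*, *Krt18*, *Sox9*, *Epcam*, *Cd24a* and *Tff3*, and downward for *Krt23*. For *Tff3* it means a smaller decrease, since the gene fell in PWK/PhJ too.

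Other genes of the bile duct were read from a list of 24, all of them tested. In PWK/PhJ, 15 rose and 1 fell, 62.5% higher against 15.1% of all genes, with a median log2 fold change of 1.49 against -0.01 over all genes. *Cftr*, the chloride channel of duct cells, went from 0.0828 ± 0.036 to 1.40 ± 1.00 CPM (SD, fold change 3.77, adjusted p = 1.87e-07). *Cldn4*, a tight junction protein, changed by 3.06 (0.000119) and *Sctr*, the secretin receptor, by 2.80 (1.4e-07), and *Cldn3* was the gene that fell (-0.28). In 129S1/SvImJ, 5 rose and 1 fell (median 0.69). The other 5 strains had 0 to 3 genes higher and 0 to 2 lower, and their medians were at most 0.41, in CAST/EiJ. Without the libraries that stood apart, 10 rose and 1 fell in 129S1/SvImJ, and 18 rose and 1 fell in PWK/PhJ. Those libraries were picked by the members' own values and none is of these strains, so the higher counts add no support. In DBA/2J, the cadherin gene *Cdh1* fell by 2.95 on the log2 scale (1.8e-11).

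**Figure D4:**
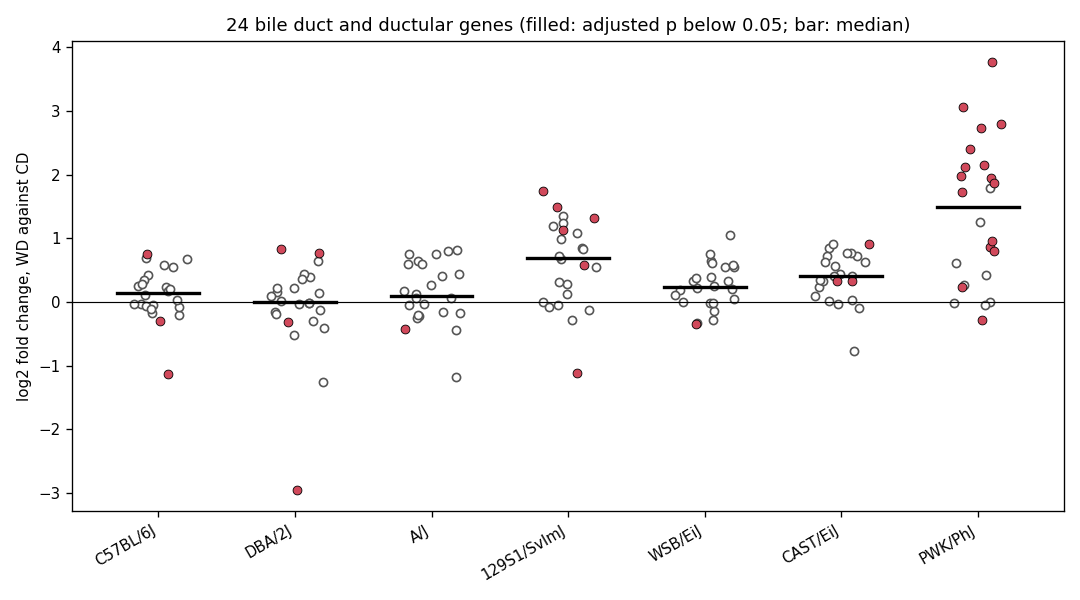
Diet effect (log2 fold change, WD against CD) on 24 bile duct and ductular genes in each strain, 1 point for a gene, filled where the adjusted p was below 0.05, with a bar at the median. The median is 1.49 in PWK/PhJ and 0.69 in 129S1/SvImJ, and at most 0.41 in the other strains.

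Markers of other cells moved along with the members in PWK/PhJ, where 15.1% of all genes tested were called higher and 14.5% lower. Of 8 macrophage markers, 7 rose there, and their sum went from between 39.5 and 286 CPM on CD to between 296 and 428 CPM on WD. Of 5 proliferation markers, 3 rose (sum 3.07 to 8.51 CPM on CD, 9.59 to 17.1 CPM on WD), and of 6 stellate cell markers 2 did (57.9 to 101 CPM on CD, 114 to 239 CPM on WD). Of 10 hepatocyte markers, 4 fell and none rose (119989 to 145534 CPM on CD, 78264 to 106694 CPM on WD). In 129S1/SvImJ, 7 macrophage and 4 proliferation markers rose and 5 hepatocyte markers fell, with 14.5% of all genes higher and 13.6% lower. In DBA/2J no macrophage marker was called. In C57BL/6J, most macrophage markers and the stellate cell markers *Col1a1*, *Acta2* and *Pdgfrb* also rose, and no marker of either list fell. *Epcam*, *Cd24a*, *Sox9* and *Krt7* were not called in that strain, which holds libraries that stood apart. Without its CD replicate 2, *Krt7* was called higher (0.86, limma-voom adjusted p = 0.00594), and without its WD replicate 3, *Sox9* was called lower. The missing calls therefore do not show that these genes were unchanged there. None of the hepatocyte and stellate cell markers was at 0 in any mouse, and among the macrophage markers *Gpnmb* was at 0 in 3 mice and *Trem2* in 1. The part of these markers in the members' results was not tested.

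The 3 libraries that stood apart each had at least 3 members far above the other mice of their group by Dixon's test. Replicate 2 of C57BL/6J on CD had more of 7 members than all 7 other mice of its group, with 22.4 CPM of *Epcam* (12.8 times the median of the others), 10.5 CPM of *Krt19* (9.22 times), 6.72 CPM of *Krt7* (7.95 times), 33.5 CPM of *Cd24a* and 26.8 CPM of *Sox9*. Its *Krt8* of 300.5 CPM and *Krt18* of 269 CPM lay within the range of the others. It also exceeded them in 21 of the 24 duct genes (median 7.75 times the others' median), as it did in 28.1% of all genes tested.

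Replicate 3 of C57BL/6J on WD was likewise above its group in 6 members, with 18.1 CPM of *Epcam*, 8.66 CPM of *Krt19*, 4.72 CPM of *Krt7*, 31.7 CPM of *Cd24a* and 16.0 CPM of *Sox9*, and in 21 duct genes (24.8% of all genes). Replicate 5 of A/J on CD was above its group in 4 members, with 5.03 CPM of *Krt19*, 5.74 CPM of *Epcam* and 8.84 CPM of *Cd24a*, and in 14 duct genes (20.5% of all genes). The A/J mouse was one of those with pancreatic RNA, at 344 CPM over 6 acinar genes against at most 37.6 CPM in its group, and it had 14.1 CPM of squamous keratins. The C57BL/6J mouse on CD had 6.49 CPM of the acinar genes, within the 4.55 to 7.78 CPM of the others. Its proliferation markers summed to 85.8 CPM (at most 28.9 in the others), its stellate cell markers to 263 CPM (at most 138) and its macrophage markers to 719 CPM (at most 575). In the WD mouse the stellate cell markers summed to 322 CPM (at most 245 in the others) and the proliferation markers to 39.7 CPM (at most 21.5). In both C57BL/6J mice, therefore, the duct genes were high together with stellate and proliferation markers, and the part of these in the members' values was not tested.

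**Figure D5:**
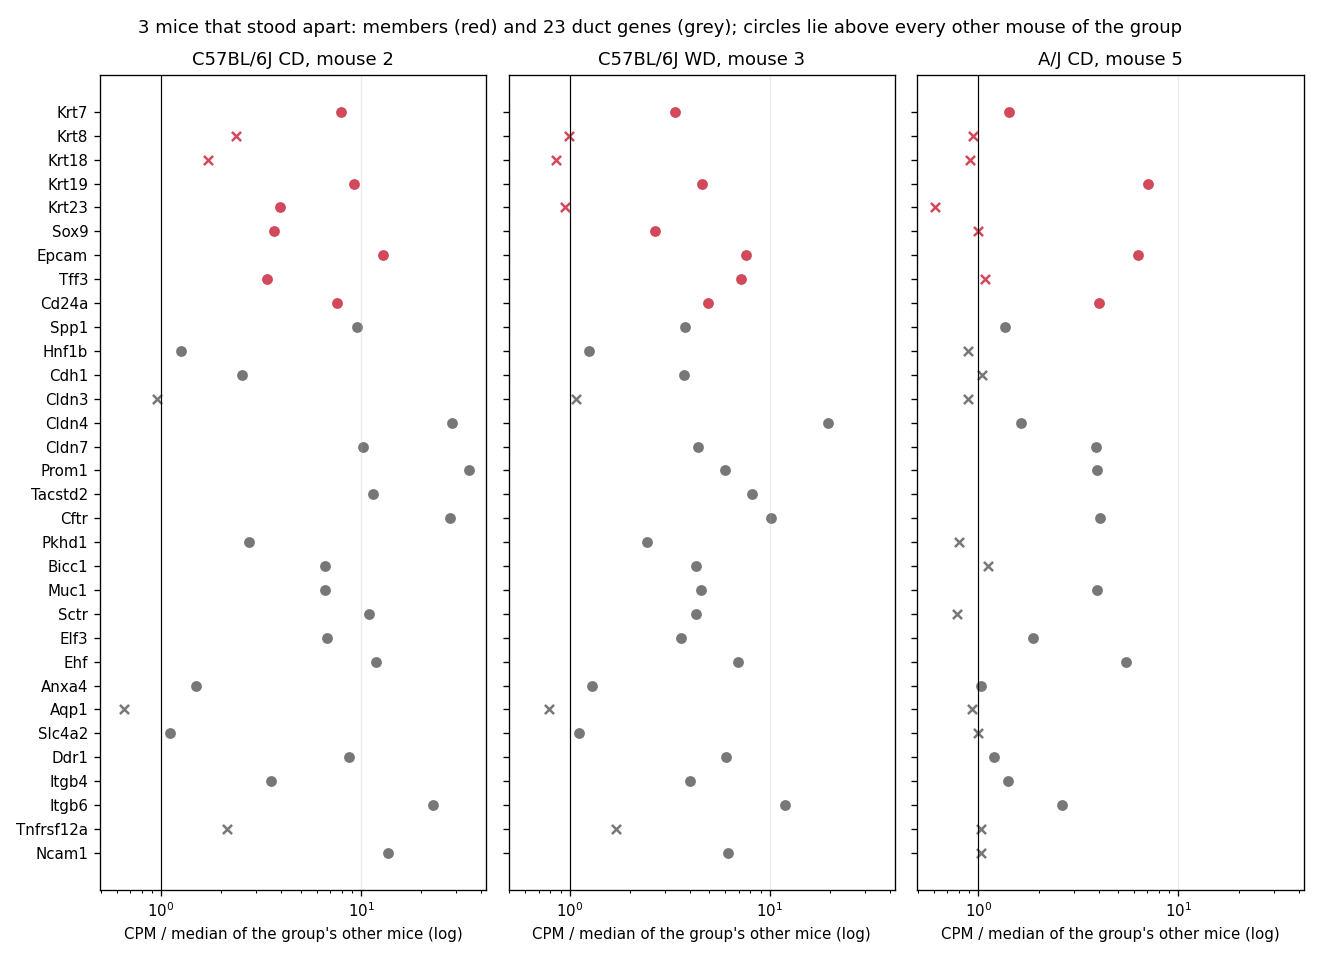
Level of the 9 members (red) and 23 of the 24 duct genes (grey) in the 3 libraries that stood apart, as CPM divided by the median of the other mice of their group (log scale), with circles for genes above every other mouse and crosses for the rest. In replicate 2 of C57BL/6J on CD, *Epcam* lies at 12.8 and *Krt19* at 9.22 times that median, while *Krt8* and *Krt18* of that mouse lie within the range of its group.

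Other lists of genes with a role near that of the members were read in the same fits. Of all genes tested, 14.3% were called higher and 11.9% lower in C57BL/6J, 9.77% and 9.73% in CAST/EiJ, and 15.1% and 14.5% in PWK/PhJ. Of 9 genes that link keratin filaments to membranes and desmosomes, CAST/EiJ had 3 higher and 1 lower, with *Dsg2* (desmoglein 2) at 0.52, *Dsp* (desmoplakin) at 0.40 and *Pkp2* (plakophilin 2) at -0.26, and PWK/PhJ had 4 higher. The plakin *Ppl* rose in 5 strains, DBA/2J, A/J, 129S1/SvImJ, WSB/EiJ and PWK/PhJ, by 1.02 to 1.72 (chosen after its values were seen). Of 16 Notch pathway genes, a pathway that acts in duct development, 7 rose and 1 fell in C57BL/6J, led by *Nrarp* at 1.79 and *Hey1* at 0.68 with *Hes1* at -0.63, and none was called in DBA/2J and A/J. Of 13 genes of the YAP pathway, which also controls duct cell identity, 5 rose and 1 fell in PWK/PhJ. *Ankrd1* changed by 2.93 there, *Ccn1* by 1.09 and the coactivator *Wwtr1* by 0.92. *Wwtr1* also rose in C57BL/6J (0.52), DBA/2J (0.38), A/J (0.52) and 129S1/SvImJ (0.43). *Ccn2*, of the same list, rose in C57BL/6J (1.14) and was not called in PWK/PhJ (0.68). Of the 3 trefoil factors, *Tff1* fell in CAST/EiJ (-0.99) beside *Tff3* and in 129S1/SvImJ (-1.42), and *Tff2* was not called in any strain.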

How the data were processed

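Liver RNA of 93 mice in 14 groups (7 strains, CD or WD) was sequenced by the authors, whose methods name the SMARTER mRNA-Seq kit, the BGISEQ-500 and FastQC, with mapping to the C57BL/6J genome and counting by STAR (version 2.7.1a in the submitters' processing notes). What the authors deposited are raw counts of reads per gene in each mouse, not normalized. Lines that sum reads outside genes were left out of library sizes. The annotation release and strand setting are not given in the sources used here. Symbols, positions and exon lengths were taken from GENCODE (GRCm38). Each mouse had between 40020424 and 49894856 reads on genes, and counting error weighs most on genes with few reads.

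The fits used limma 3.58.1 and edgeR 4.0.16 under R 4.3.3, with filterByExpr at a minimum count of 10 (19110 genes), TMM factors, and voom with 1 mean per strain and diet. Diets were compared within strains, with p-values adjusted by Benjamini–Hochberg over all genes and calls made below 0.05, and the strains' diet effects and levels were compared with F tests and 1 strain against the mean of the other 6 in the same fit. Log2 CPM used a prior count of 2. The ratio of *Krt8* to *Krt18* was compared with two-sided exact permutation tests. The alternatives were edgeR's quasi-likelihood test, DESeq2 1.42.0, upper-quartile factors, other filters, cohort or RNA integrity number as a covariate, quality weights, separate fits, fits within cohorts, and each mouse left out. The pipeline was tested on simulated data. The members and the gene lists were chosen with earlier results of these data known. Named genes were all 9 members, up to 3 called genes with the largest change from each list in the strain with most calls, and for each member the 2 genes with the highest correlation over the group means. Genes outside this rule were named after their values were seen (*Cldn3*, *Cdh1* of DBA/2J, *Ppl*, *Tff1* of 129S1/SvImJ, *Krt20* and *Krt80*). So were *Nrarp* and *Hey1* of 129S1/SvImJ, *Wwtr1* outside PWK/PhJ, *Ccn2*, and the stellate cell markers of PWK/PhJ. The likeness result of *Cd24a* and 1 duct gene of a figure are not reported here.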

Additional observations from a re-analysis of the deposited data

Results flagged for a closer look

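Single mice lay far from their group in 15 of the 126 combinations of a member and a group, 12 of them high and 3 low. For separate draws, chance flags about 1 in 20. The members of a mouse share its library, so the combinations are not separate draws and this count is a description. Replicate 2 of C57BL/6J on CD was high in *Krt7* (6.72 CPM), *Krt19* (10.5 CPM), *Krt23* (7.01 CPM) and *Sox9* (26.8 CPM). Replicate 3 of C57BL/6J on WD was high in *Krt7* (4.72 CPM), *Krt19* (8.66 CPM) and *Epcam* (18.1 CPM). Replicate 5 of A/J on CD was high in *Krt19* (5.03 CPM), *Epcam* (5.74 CPM) and *Cd24a* (8.84 CPM). Single flags fell on replicate 3 of CAST/EiJ on WD for *Krt7* (3.29 CPM, high) and replicate 2 of WSB/EiJ on WD for *Sox9* (8.41 CPM, high). The 3 low values were *Krt8* of C57BL/6J WD replicate 8 (182 CPM), *Krt23* of WSB/EiJ WD replicate 4 (1.01 CPM) and *Epcam* of CAST/EiJ CD replicate 7 (0.905 CPM).

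The diet effect differed between the 7 strains for 7 members (limma-voom F tests, 37.5% of all genes tested), with adjusted p-values of 0.015 for *Krt8*, 0.00719 for *Krt18*, 0.000237 for *Krt23*, 6.67e-05 for *Sox9*, 0.0436 for *Epcam* (0.104 without the mice with pancreatic RNA and 0.0642 with no filter), 0.000163 for *Tff3* and 0.00409 for *Cd24a*. Set against the other 6 strains' mean, PWK/PhJ was called for 7 members (16.3% of all genes tested), with log2 differences of 0.67 for *Krt8*, 0.73 for *Krt18*, -1.07 for *Krt23*, 1.33 for *Sox9*, 1.79 for *Epcam*, 1.26 for *Tff3* (lost with edgeR, DESeq2 and without the mice with pancreatic RNA) and 2.05 for *Cd24a*. DBA/2J differed by -0.72 for *Sox9* and -3.64 for *Tff3*. For *Krt23*, 129S1/SvImJ differed by 1.61 and CAST/EiJ by -1.03.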

How the results depend on the processing

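Of 820 member fold changes under other settings, 720 kept direction and call, 38 gained the call, 29 lost it and 33 changed sign, and of 837 with a mouse left out, 775, 10, 26 and 26 did so. All 59 sign changes were uncalled in both fits. Calls in A/J (2 in the fit reported) numbered 1 where every mouse needed 10 counts, and 4 with quality weights, separate fits, edgeR and DESeq2. In 129S1/SvImJ (3), they numbered 7 with quality weights and without the mice that stood apart, 5 with separate fits, and 6 with edgeR and DESeq2. In WSB/EiJ (1) they numbered 2 with quality weights and separate fits, and 3 with edgeR and DESeq2. In CAST/EiJ (2), 1 was left with no filter, with at least 10 counts in every mouse (where *Tff3* was not tested, which gave 8 missing values), and without the mice with pancreatic RNA. The last setting and that without the mice that stood apart were chosen after seeing the data. The causes were not tested.

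With each mouse left out, calls ranged from 21 to 28 over all strains (23 reported), and those within a strain from 4 to 6 (C57BL/6J), 3 to 4 (DBA/2J), 2 to 3 (A/J), 2 to 5 (129S1/SvImJ, with 5 without C57BL/6J CD replicate 2, C57BL/6J WD replicate 3 or 129S1/SvImJ CD replicate 6), 1 to 2 (CAST/EiJ, with 1 without CD replicate 2, 5 or 6 or WD replicate 8) and 6 to 7 (PWK/PhJ), and those of WSB/EiJ stayed at 1. Members whose diet effect differed between strains numbered 6 to 8, and those whose level differed 7 to 8 on CD and 9 on WD. The log2 difference of the *Krt8* to *Krt18* ratio ran from 0.84 to 0.96 in WSB/EiJ, 0.56 to 0.63 in 129S1/SvImJ, 0.51 to 0.61 in DBA/2J, 0.50 to 0.60 in A/J, 0.44 to 0.59 in PWK/PhJ, 0.42 to 0.53 in C57BL/6J and 0.41 to 0.52 in CAST/EiJ.

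Log2 fold changes that changed sign were small or widely spread. With mice left out they ranged from -0.24 to 0.015 for *Krt7* in DBA/2J, -0.10 to 0.16 for *Krt7* and -0.61 to 0.22 for *Krt19* in A/J, -0.11 to 0.38 for *Krt23* in DBA/2J, -0.19 to 0.024 in CAST/EiJ and -0.26 to 0.0012 in PWK/PhJ. For *Epcam* they ranged from -0.28 to 0.56 in C57BL/6J, -0.0059 to 0.27 in DBA/2J and -0.16 to 0.52 in A/J, for *Cd24a* in A/J from -0.20 to 0.37, and for *Tff3* in 129S1/SvImJ from -0.39 to 0.26. With cohort as a covariate, *Krt23* in DBA/2J was -0.026, *Epcam* in C57BL/6J -0.17 and *Epcam* in A/J 0.013. With edgeR and DESeq2, *Epcam* in C57BL/6J was -0.16 and -0.15 and *Tff3* in 129S1/SvImJ 0.067 and 0.086. In A/J without the mice that stood apart and without those with pancreatic RNA, *Krt19* was 0.21 and 0.29, *Epcam* 0.51 and 0.58, and *Cd24a* 0.36 and 0.53. Within single cohorts, *Krt7* was 0.38 in DBA/2J and 0.044 in WSB/EiJ, *Krt19* -0.18 (DBA/2J), 0.35 (A/J), -0.19 (129S1/SvImJ), -0.11 (WSB/EiJ) and -0.12 (PWK/PhJ), *Krt23* -0.89 in DBA/2J, and *Sox9* 0.028 in C57BL/6J, 0.12 in 129S1/SvImJ and -0.25 in CAST/EiJ. *Epcam* was -0.073 and -0.35 in the cohorts of C57BL/6J, -0.078 in DBA/2J and 0.62 in A/J, *Tff3* 0.086 in 129S1/SvImJ, and *Cd24a* -0.16 (C57BL/6J), -0.023 (DBA/2J), 0.60 (A/J) and -0.031 (WSB/EiJ). No paired analysis was possible because the labels give no replicate numbers that pair single mice, and the cohort that the diets of a strain share was fitted as a covariate instead, with 22 calls over all strains. Depth limits *Krt7*, *Krt19*, *Epcam* and low *Tff3* most.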

Other observations

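Other keratin genes numbered 49 in the table, of which 8 had enough reads to be tested. *Krt20* rose in PWK/PhJ from 0.389 to 1.37 CPM (log2 fold change 1.49, limma-voom adjusted p = 0.0063) and *Krt80* in C57BL/6J from 0.212 to 0.416 CPM (1.08, 0.0126). In CAST/EiJ, *Krt13* (-4.28), *Krt4* (-3.99) and *Krt5* (-2.53), the keratins of squamous epithelium, were called lower on WD. Their sum was 36.5 CPM in CD replicate 5 and 17.7 CPM in CD replicate 6 of that strain, so that 2 mice held most of these reads.

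Among other cells of the liver, *Gpnmb*, *Trem2* and *Lyz2* led the macrophage markers of 129S1/SvImJ, with log2 fold changes of 6.48, 4.52 and 1.70, and *S100a9*, *Cxcr2* and *S100a8* led its neutrophil markers (3 of 6 higher) with 2.29, 2.11 and 1.85. Its proliferation markers were led by *Ccnb1* at 2.96, *Mki67* at 2.41 and *Top2a* at 2.27. In C57BL/6J, the stellate cell markers *Col1a1* (1.93), *Acta2* (0.79) and *Pdgfrb* (0.53) rose and the B cell factor gene *Pax5* fell (-0.68), while of the hepatocyte markers *Alb* (-0.70) and *Apoa1* (-0.46) fell and *Cyp2e1* (0.65) rose. Of the 4 erythroid markers tested, *Alas2* rose (0.76) and *Epor* fell (-0.48) in 129S1/SvImJ. None of 6 pancreatic acinar genes was called in any strain by limma-voom. For *Cpa1*, *Prss2*, *Pnlip* and *Ctrb1* between 47 and 56 of the 93 mice held no read, whereas *Cela1* had reads in every mouse (median 709).

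The genes whose means over the 14 groups were most like those of a member, by Pearson's r of log2 CPM, were *Cldn7* (0.98) and *St14* (0.98) for *Epcam*, *9130017K11Rik* (0.95) and *Plekha4* (0.94) for *Krt18*, and *Lif* (0.94) and *Ccdc120* (0.94) for *Krt8*. They were *Emb* (0.94) and *1110006O24Rik* (0.94) for *Krt23*, *Pmaip1* (0.93) and *Rbms3* (0.93) for *Krt7*, *Asb13* (0.90) and *E330034L11Rik* (0.88) for *Tff3*, *Hrh1* (0.90) and *Csdc2* (0.90) for *Krt19*, and *Rhpn2* (0.86) and *Sstr2* (0.85) for *Sox9*. These are descriptions over 14 means that share strains and diets.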
